A study of Homo sapiens with 22 samples.

Results

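The ZNF genes are the human genes whose approved symbol is ZNF followed by a number. Symbols of this form, with at most 1 letter after the number, were taken as members where the RPKM was at least 2 in both vehicle samples. The members were thus chosen by their vehicle levels. RPKM scales read numbers to the length of the transcript and to the mapped reads of the sample, so levels of different genes can be compared per length. The rule found 240 members among 505 ZNF symbols and 20668 symbols in all. A further 190 ZNF symbols lay under the floor and passed the filter used for testing (2 or more samples at 0.5 RPKM or above), and 75 did not pass it. All 240 members passed the filter. Vehicle levels are therefore given as a description. The members just inside the floor were ZNF767P, ZNF236 and ZNF430, whose lower vehicle values were 2.01, 2.04 and 2.04 RPKM, and the genes just outside were ZNF775, ZNF136 and ZNF551 at 1.99, 1.98 and 1.98 RPKM.

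RNA was sequenced from MDA-MB-231, a cell line derived from a triple-negative breast cancer, in 5 groups of 2 samples. The groups were vehicle, Dex at 100 nM and CpdA at 10 µM, each ligand for 2 h and for 4 h, after culture in serum stripped of hormones. Dex (dexamethasone) is a synthetic glucocorticoid and a full agonist of the glucocorticoid receptor (GR), and CpdA (compound A) is a non-steroidal GR ligand. Sample labels number the vehicle samples as replicates 1 and 2 without a time, but the column headers of the files mark replicate 1 as 2 h and replicate 2 as 4 h. Both served every comparison with vehicle, so that the spread between them holds time as well as replicate, which cannot be told apart. Everything here comes from 1 cell line at 1 dose per ligand, with the dose of CpdA above that of Dex. VIM, CD44 and AXL were high (VIM 1267 to 1464 RPKM) and ESR1 and PGR at most 0.00484 RPKM, while SPARC, listed as a mesenchymal marker, stayed between 0.149 and 0.273 RPKM. Other luminal and receptor markers ranged widely. KRT8 ran from 244 to 326 RPKM, KRT18 from 164 to 218 RPKM and ERBB2 from 15.9 to 21.6 RPKM. EPCAM ran from 8.02 to 10.6 RPKM, GATA3 had a median of 4.18 RPKM, and CDH1 stayed between 0.226 and 0.465 RPKM. PTPRC and CD3E, markers of leukocytes, stayed at or under 0.063 RPKM. LUM and PDGFRB, markers of fibroblasts, were not absent, with medians of 2.84 and 2.02 RPKM. Relative depth, read from the RPKM step of 1 read, was 1 and 1.01 in the vehicle samples and 1.06 to 1.21 in the treated samples. Depth therefore moved with treatment, and its part in the results below was not tested.

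ZNF proteins mostly carry arrays of C2H2 zinc fingers, short loops held by a zinc ion that read DNA bases. Many also have a KRAB domain, which recruits TRIM28 and, through it, the methyltransferase SETDB1 and heterochromatin proteins, and such KRAB zinc finger proteins are known for silencing transposable elements. The KRAB genes arose by repeated duplication and lie largely in clusters on chromosome 19, while other ZNF proteins act in transcription, RNA binding, ribosome assembly or mitosis.

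Glucocorticoid response elements (GREs) are the DNA sites of the receptor, and promoters of the members were therefore searched for their letters. RefSeq promoters on GRCh38.p14, from 250 bases before to 50 bases after the start, were matched to 203 of the 240 members. The full element, AGAACA and its inverted repeat around 3 free bases, was in 0 of these 203 windows and in 1 of 35116 promoters in all, both strands searched. Its arm AGAACA was found in 18 members (8.87%, against 14.8% of all promoters and 8.26% of those of other genes over the same floor). The cyclic AMP response element TGACGTCA was found in 12 (5.91%, against 1.85% of all promoters and 3.49% of those of other genes), and the AP-1 letters TGANTCA in 13 (6.404%, against 7.71% and 4.26%).  AGAACA is the left arm of the full element, so that a window with the full element would also be counted for the arm. These are matches of letters in a short window and say nothing of binding elsewhere. With 1 match in 35116 promoters, the full letters are too rare for 203 windows to set the members apart. Elements with other letters are missed by this search, so no lack of GREs is read from it.

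The windows of 4 members are given 5′ to 3′ in the direction of the gene, because these members carry results described further on: ZNF57 had the largest increase at Dex 2 h among the members, ZNF222 was called higher at both CpdA times, ZNF440 at CpdA 4 h, and ZNF335 lower at Dex 2 h. Capitals mark AGAACA in ZNF440, TGAGTCA in ZNF222 and TGACGTCA in ZNF335, and ZNF57 held none of these motifs.
ZNF57, chr19:2900678-2900977, plus strand: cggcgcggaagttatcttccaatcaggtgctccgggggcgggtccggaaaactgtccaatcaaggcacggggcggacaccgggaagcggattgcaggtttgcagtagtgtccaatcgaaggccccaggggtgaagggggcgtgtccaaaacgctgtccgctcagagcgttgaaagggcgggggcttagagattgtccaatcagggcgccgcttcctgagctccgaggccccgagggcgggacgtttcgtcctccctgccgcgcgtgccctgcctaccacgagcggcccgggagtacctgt
ZNF440, chr19:11814023-11814322, plus strand: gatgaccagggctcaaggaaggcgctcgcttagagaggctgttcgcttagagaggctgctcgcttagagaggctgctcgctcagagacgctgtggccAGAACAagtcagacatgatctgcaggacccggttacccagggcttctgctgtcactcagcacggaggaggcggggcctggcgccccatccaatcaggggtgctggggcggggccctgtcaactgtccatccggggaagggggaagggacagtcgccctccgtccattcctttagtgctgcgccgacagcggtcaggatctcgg
ZNF222, chr19:44025129-44025428, plus strand: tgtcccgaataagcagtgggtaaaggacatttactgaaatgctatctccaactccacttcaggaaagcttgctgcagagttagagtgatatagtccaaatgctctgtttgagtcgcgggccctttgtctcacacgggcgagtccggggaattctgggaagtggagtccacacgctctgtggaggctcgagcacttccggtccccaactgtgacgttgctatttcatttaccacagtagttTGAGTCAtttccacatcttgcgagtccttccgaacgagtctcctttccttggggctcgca
ZNF335, chr20:45972154-45972453, minus strand: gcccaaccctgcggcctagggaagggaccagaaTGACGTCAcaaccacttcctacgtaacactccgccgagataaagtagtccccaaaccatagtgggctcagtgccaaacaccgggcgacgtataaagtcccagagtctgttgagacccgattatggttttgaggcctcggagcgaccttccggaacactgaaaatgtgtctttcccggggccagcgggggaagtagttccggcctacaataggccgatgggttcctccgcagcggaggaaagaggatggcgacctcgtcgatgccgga

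The members with these letters are given by their counts, with the share of all genes tested beside them and no test. Of the 18 with AGAACA, limma called 0 at Dex 2 h (10.3% of all genes), 1 higher and 1 lower at Dex 4 h (27.4%), 0 higher and 1 lower at CpdA 2 h (6.18%), and 1 higher (ZNF440) and 4 lower at CpdA 4 h (20.5%). Between the ligands 0 were called at 2 h (13.7%), and 2 were higher and 5 lower with Dex at 4 h (33.4%), where 24 and 27 of the 185 members without the letters were called. Of the 13 with the AP-1 letters, 0 were called at Dex 2 h, and 2 lower with none higher at Dex 4 h. CpdA called 1 higher (ZNF222) and 0 lower at 2 h (1 higher, 3 lower at 4 h), while 2 were higher and 1 lower with Dex than with CpdA at 2 h, and 4 and 2 at 4 h. Of the 12 with the cyclic AMP letters, 1 was lower at Dex 2 h (ZNF335), 2 were lower at Dex 4 h, 0 were called at CpdA 2 h and 2 were lower at CpdA 4 h, with 1 and 2 lower with Dex than with CpdA at 2 h and 4 h and 0 higher in any of these. Counts this small cannot be set apart from those shares.

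The members were expressed at low levels. Their mean vehicle RPKM had a median of 4.35 and ran from 2.06 to 52.4, whereas the 9876 other genes over the same floor had a median of 12.7 RPKM. Of the members 111 lay between 2 and 4 RPKM, 77 between 4 and 8, 34 between 8 and 16, and 18 at or above 16. Summed over the members, RPKM made up 0.486% to 0.534% of the total of each sample. The most abundant were ZNF207 (50.1 and 54.7 RPKM in the vehicle samples), a kinetochore protein needed in mitosis, and ZNF703 (40.8 and 40.4 RPKM), a transcriptional corepressor. ZNF358, ZNF593, a factor of ribosome assembly, and ZNF511 followed at 34.7 to 39.0 RPKM. Neither ZNF207, ZNF358, ZNF593 nor ZNF511 was called in any of the 4 comparisons with vehicle, and ZNF703 had one of the largest decreases of the set.

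On GENCODE gene models lifted to GRCh37, 100 members with coordinates lay on chromosome 19 (41.8% of 239, against 5.95% of the other genes). A protein could be translated for 235 members. Of these, 229 held at least 1 C2H2 finger, with a median of 9 and at most 36, and 86 held the letters of the KRAB A-box that were searched for, 61 of them from chromosome 19. A KRAB domain with other letters is missed by this search. Because duplicated genes share sequence, 50-base reads can be split between near-identical members, and how shared reads were assigned is not given in the sources used here. In 90 members an exon on the opposite strand overlaps, and the library kit does not mark strand, so that reads from the partner cannot be told apart. These include ZNF57, ZNF114, ZNF175, ZNF93, ZNF432 and ZNF106.

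At Dex 2 h ZNF57, ZNF114 and ZNF189 were among the members higher than with vehicle, and ZNF703 was among those lower. In such bulk samples, fewer cells expressing a gene and less RNA per cell cannot be told apart. At an adjusted p under 0.05 (limma, Benjamini-Hochberg over 12713 genes), 10 members were higher and 14 lower than vehicle, together 10.0% of the members against 10.3% of all genes tested. The share higher among all genes was 4.49% and the share lower 5.82%. Past a fold change of 1.5 besides, 5 members were higher and 4 lower (2.33% and 1.72% of all genes tested). Of other genes over the same floor 4.43% were higher and 6.63% lower. The comparisons with vehicle contain the values that set the floor, so nothing is read from the members' counts in them. The count of members lower rested on single samples: it was 29 without vehicle replicate 1 and 4 without Dex 2 h replicate 1, and it was 5 members higher without Dex 2 h replicate 1.

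ZNF57, a KRAB gene at chr19:2900926-2918471 (GRCh37), was at 2.33 and 2.30 RPKM with vehicle and at 9.18 and 8.47 RPKM at Dex 2 h. It was at 7.18 and 6.89 RPKM at Dex 4 h, and at 2.50 to 2.56 RPKM in all 4 CpdA samples. The Dex samples lay far above all others, and the CpdA samples lay just above vehicle. Dex raised it by 1.89 on the log2 scale at 2 h (SE 0.064, adjusted p = 1.5e-07, limma) and by 1.56 at 4 h (adjusted p = 2.5e-07, limma), and at CpdA 2 h and 4 h it was 0.13 and 0.12 (adjusted p = 0.31 and 0.23, limma).

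ZNF114, a KRAB gene with 3 fingers at chr19:48773338-48790865 (GRCh37), was at 4.59 and 6.29 RPKM with vehicle, 15.6 and 14.4 RPKM at Dex 2 h and 24.3 and 23.7 RPKM at Dex 4 h. At CpdA 2 h it was at 4.68 and 4.49 RPKM and at CpdA 4 h at 7.28 and 7.72 RPKM. Dex samples at 4 h were above those at 2 h, and the CpdA 4 h samples lay above vehicle without reaching either Dex group. ZNF114 rose by 1.46 at 2 h of Dex (SE 0.119, adjusted p = 4.6e-05, limma) and by 2.14 at 4 h on the log2 scale (adjusted p = 1.7e-06, limma), the largest increase of any member. ZNF114 rose by 0.47 on the log2 scale at CpdA 4 h (adjusted p = 0.022, limma), a call lost when either CpdA 4 h replicate was left out.

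**Figure D1:**
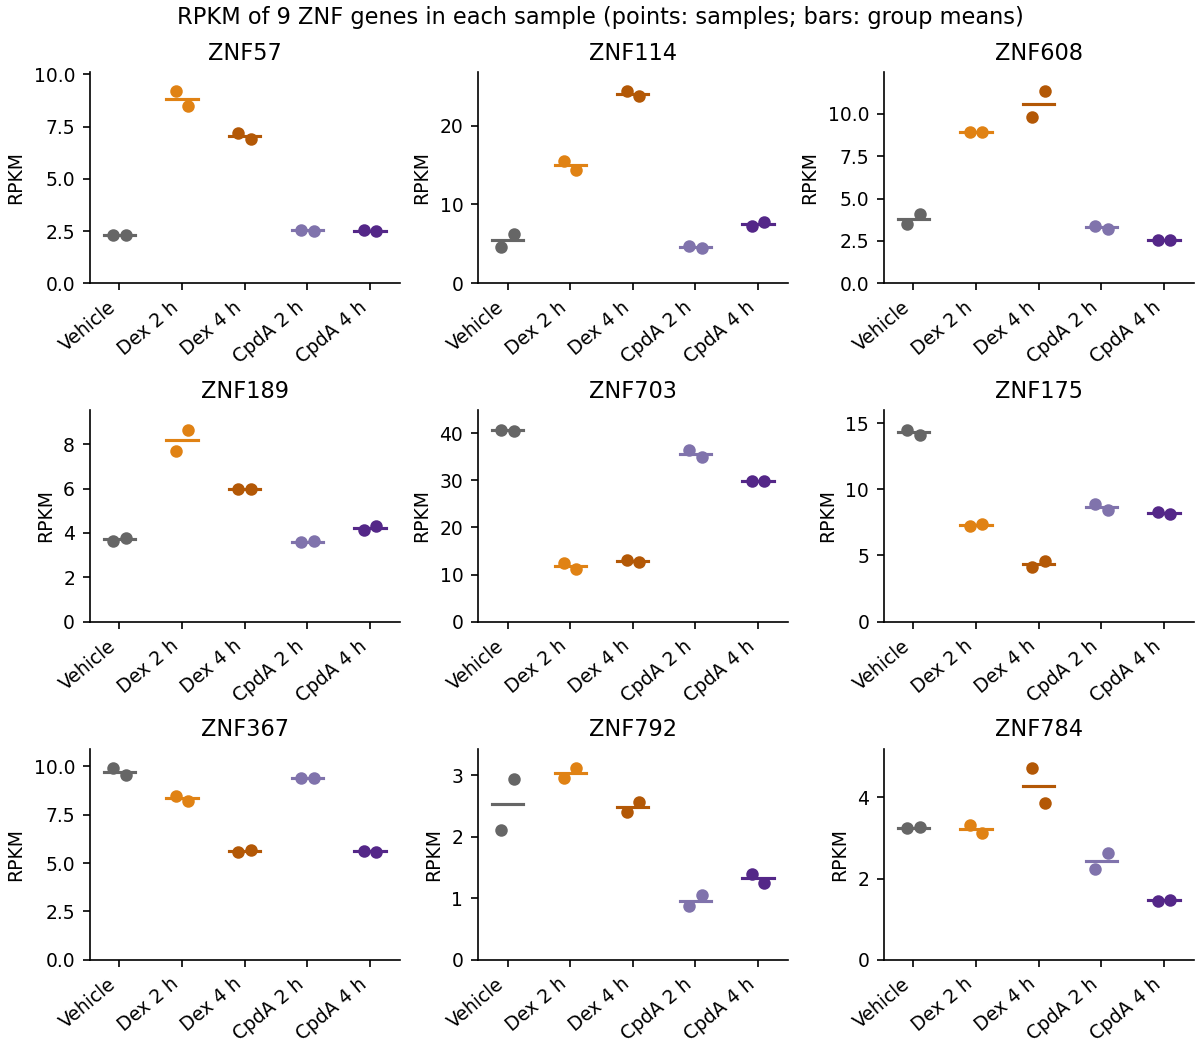
RPKM (vertical axes, each starting at 0) of 9 ZNF genes in the 10 samples, by group; points are samples and bars are means of 2 replicates. ZNF57, ZNF114, ZNF608 and ZNF189 are highest in the Dex groups, ZNF703 and ZNF175 are highest in vehicle, ZNF367 falls to between 5.57 and 5.69 RPKM at 4 h of either ligand, and ZNF792 and ZNF784 are lowest in the CpdA groups.

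ZNF189, a KRAB gene with 16 fingers at chr9:104161133-104172942 (GRCh37), was at 3.66 and 3.78 RPKM with vehicle and at 7.70 and 8.67 RPKM at Dex 2 h. At Dex 4 h it was at 5.96 and 6.01 RPKM, and the CpdA samples lay between 3.59 and 4.32 RPKM. It was highest at 2 h and lower again at 4 h, with no overlap between these groups. Its log2 fold change against vehicle was 1.11 (SE 0.067, adjusted p = 6.2e-06, limma) at 2 h and 0.67 (adjusted p = 8.2e-05, limma) at 4 h.

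ZNF608, a large protein with 1 finger by the pattern and no KRAB letters, at chr5:123972606-124084500 (GRCh37), moved in opposite directions with the ligands. It was at 3.49 and 4.07 RPKM with vehicle, 8.89 and 8.93 RPKM at Dex 2 h and 9.78 and 11.3 RPKM at Dex 4 h. With CpdA it was at 3.36 and 3.23 RPKM at 2 h and at 2.54 and 2.53 RPKM at 4 h. All 4 Dex samples were above and all 4 CpdA samples below vehicle. The log2 fold change was 1.46 at Dex 4 h (SE 0.088, adjusted p = 2.8e-06, limma) and −0.55 at CpdA 4 h (adjusted p = 0.0025, limma).

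Besides these, ZNF485, ZNF354A, ZNF296 and ZNF622 were higher at both Dex times, 8 members in all (3.33%, against 4.05% of other genes). ZNF485, with 11 fingers, was at 2.62 and 3.12 RPKM with vehicle and at 4.42 and 4.32 RPKM at Dex 2 h, an increase of 0.59 on the log2 scale (SE 0.107, adjusted p = 0.0066, limma) that lost its call without Dex 2 h replicate 1. ZNF354A, with 13 fingers, was at 4.67 and 5.06 RPKM with vehicle and at 7.14 and 6.86 RPKM at Dex 4 h, an increase of 0.52 (SE 0.058, adjusted p = 0.00017, limma).

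ZNF703 was the member with the largest decrease at Dex 2 h. It was at 40.8 and 40.4 RPKM with vehicle, 12.5 and 11.2 RPKM at Dex 2 h and 13.03 and 12.7 RPKM at Dex 4 h. The CpdA samples were at 36.5 and 34.9 RPKM at 2 h and at 29.95 and 29.95 RPKM at 4 h. Vehicle was highest, CpdA came next and Dex was lowest, with no overlap between any of these groups. ZNF703 was 3.42-fold lower at Dex 2 h (log2 fold change −1.77, SE 0.054, adjusted p = 8.1e-08, limma), 3.14-fold lower at Dex 4 h (adjusted p = 6.8e-08, limma) and 1.35-fold lower at CpdA 4 h (adjusted p = 0.00067, limma).

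ZNF175, a KRAB gene with 13 fingers at chr19:52074536-52095763 (GRCh37), was the 1 member lower in all 4 comparisons with vehicle (0.417% of members, against 1.11% of other genes), and 0 members were higher in all 4 (0.344% of other genes). It was at 14.5 and 14.1 RPKM with vehicle, 7.22 and 7.403 RPKM at Dex 2 h and 4.10 and 4.61 RPKM at Dex 4 h. With CpdA it was at 8.92 and 8.47 RPKM at 2 h and at 8.28 and 8.15 RPKM at 4 h. Vehicle lay above every treated sample, and Dex 4 h below every other sample. The log2 fold changes were −0.96 and −1.70 with Dex and −0.71 and −0.79 with CpdA at 2 h and 4 h (SE 0.063, adjusted p from 1.5e-07 to 0.00036, limma).

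ZNF267, a KRAB gene with 14 fingers, was lower at both Dex times and not called with CpdA. It was at 2.89 and 3.01 RPKM with vehicle, 1.70 and 1.86 RPKM at Dex 2 h, 1.63 and 1.67 RPKM at Dex 4 h, and 2.54 to 3.27 RPKM with CpdA. With Dex it fell by 0.70 at 2 h and 0.80 at 4 h on the log2 scale (SE 0.077, adjusted p = 0.00031 and 6.5e-05, limma). With ZNF175, ZNF703, ZNF367 and ZNF420, 5 members (2.08%) were lower at both Dex times, against 5.94% of other genes. ZNF675 fell by 0.68 on the log2 scale at Dex 2 h (SE 0.088, adjusted p = 0.0009, limma), from 4.74 and 5.83 RPKM to 3.21 and 3.29 RPKM, and at Dex 4 h it stood at 4.38 and 4.47 RPKM (adjusted p = 0.072, limma). ZNF419 fell by 0.53 at Dex 2 h (adjusted p = 0.011, limma), a call lost without vehicle replicate 2 or either Dex 2 h replicate.

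At Dex 4 h more members were called, 15 higher and 34 lower (20.4%, against 27.4% of all genes tested, with 9.26% higher and 18.2% lower). Past a fold change of 1.5 besides, 4 were higher and 8 lower (3.72% and 4.99% of all genes tested). The split between directions depended on the scaling between samples: quantile normalization gave 23 higher and 20 lower, median scaling 23 and 22, and a correction for GC content and length 29 and 27. Of other genes over the floor 29.4% were called. Without Dex 4 h replicate 2 the members lower were 57, and without vehicle replicate 1 the members higher were 8. ZNF697 was at 10.6 and 7.55 RPKM with vehicle and at 3.51 and 4.25 RPKM at Dex 4 h (log2 fold change −1.19, SE 0.150, adjusted p = 0.00035, limma), with the vehicle samples apart from each other. The pseudogene ZNF702P was at 4.91 and 4.59 RPKM with vehicle and at 2.50 and 2.69 RPKM at Dex 4 h (log2 fold change −0.85, SE 0.071, adjusted p = 2.6e-05, limma). ZNF697 was not called at Dex 2 h (log2 fold change −0.37, adjusted p = 0.18, limma), where it was at 6.4002 and 7.36 RPKM.

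CpdA for 2 h called 2 members higher and 21 lower (9.58%, against 6.18% of all genes tested, with 1.89% higher and 4.29% lower). Past a fold change of 1.5 besides, 0 members were higher and 2 lower, ZNF792 and ZNF175 (0.708% and 0.7% of all genes tested). Of other genes over the floor 7.13% were called. The count lower was 2 without vehicle replicate 2 or without CpdA 2 h replicate 2, and 39 without either Dex 4 h replicate. Quantile normalization gave 3 higher and 13 lower.

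ZNF792, a KRAB gene with 12 fingers at chr19:35447258-35455133 (GRCh37), was at 2.11 and 2.94 RPKM with vehicle, 2.95 and 3.12 RPKM at Dex 2 h and 2.41 and 2.57 RPKM at Dex 4 h. It was at 0.877 and 1.05 RPKM at CpdA 2 h and at 1.39 and 1.26 RPKM at CpdA 4 h. All CpdA samples lay below all other samples, while Dex and vehicle overlapped at 4 h. The log2 fold change was −1.29 at CpdA 2 h (SE 0.148, adjusted p = 0.0014, limma) and −0.87 at CpdA 4 h (adjusted p = 0.0036, limma). ZNF174, a protein with a SCAN domain, fell by 0.56 at CpdA 2 h (adjusted p = 0.013, limma), ZNF485 by 0.56 (adjusted p = 0.017, limma) and ZNF791 by 0.50 (adjusted p = 0.039, limma). The calls of ZNF174, ZNF485 and ZNF791 were each lost without CpdA 2 h replicate 2 and without vehicle replicate 2, that of ZNF174 also without CpdA 2 h replicate 1, and that of ZNF791 without any 1 sample other than those of Dex 4 h.

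The 2 members higher at CpdA 2 h were ZNF222 and ZNF16, and both were also higher at CpdA 4 h. ZNF222 was at 2.13 and 2.61 RPKM with vehicle, 3.34 and 3.18 RPKM at CpdA 2 h, 3.27 and 3.33 RPKM at CpdA 4 h, and 1.75 to 2.25 RPKM with Dex. Its log2 fold change with CpdA was 0.45 at 2 h and 0.47 at 4 h (SE 0.0995, adjusted p = 0.032 and 0.011, limma). ZNF16 was at 3.62 and 3.49 RPKM with vehicle and at 4.65 and 4.40 RPKM at CpdA 2 h (log2 fold change 0.34, SE 0.083, adjusted p = 0.047, limma). At CpdA 2 h the call of ZNF16 was lost without any 1 sample other than those of Dex 4 h, and that of ZNF222 likewise except that it held without vehicle replicate 2. At CpdA 4 h the call of ZNF222 was lost without either CpdA 4 h replicate. The 8 members lower at both CpdA times (3.33%, against 3.80% of other genes) were ZNF175, ZNF302, ZNF398, ZNF544, ZNF574, ZNF664, ZNF696 and ZNF792.

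At CpdA 4 h 13 members were higher and 33 lower (19.2%, against 20.5% of all genes tested, with 6.76% higher and 13.8% lower). Past a fold change of 1.5 besides, 0 were higher and 5 lower (1.42% and 2.15% of all genes tested). Quantile normalization gave 27 higher and 20 lower, median scaling 25 and 20, and the GC and length correction 26 and 31. Of other genes over the floor 23.3% were called. Without CpdA 4 h replicate 2 the members higher were 1, and without CpdA 4 h replicate 1 the members lower were 9.

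ZNF784, with 6 fingers at chr19:56132107-56135932 (GRCh37), was at 3.25 and 3.27 RPKM with vehicle, 2.24 and 2.62 RPKM at CpdA 2 h and 1.45 and 1.48 RPKM at CpdA 4 h. At Dex 4 h it was at 4.73 and 3.85 RPKM. CpdA 4 h lay below and Dex 4 h above vehicle. The log2 fold change was −1.10 at CpdA 4 h (SE 0.108, adjusted p = 0.00022, limma) and 0.38 at Dex 4 h (adjusted p = 0.029, limma). ZNF608, ZNF784 and ZNF69 were the 3 members called in opposite directions by the ligands at 4 h (1.25%, against 3.35% of other genes), and ZNF485 and ZNF622 the 2 at 2 h (0.833%, against 0.952%).

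ZNF367, with 2 fingers by the pattern, was lower at 4 h of both ligands. It was at 9.93 and 9.53 RPKM with vehicle, 5.57 and 5.69 RPKM at Dex 4 h, and 5.64 and 5.57 RPKM at CpdA 4 h. At 2 h it was at 8.46 and 8.23 RPKM with Dex and at 9.38 and 9.40 RPKM with CpdA. The 4 h samples of the ligands overlapped and lay below all other samples. On the log2 scale ZNF367 fell by 0.78 with Dex and by 0.79 with CpdA at 4 h (SE 0.048, adjusted p = 3.3e-06 and 1.9e-05, limma). These comparisons share the vehicle samples.

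Other increases at CpdA 4 h were small. ZNF432 had a log2 fold change of 0.55, ZNF440 of 0.48 and ZNF786 of 0.37 (adjusted p = 0.0096, 0.0093 and 0.016, limma), and each of these calls was lost without CpdA 4 h replicate 2, that of ZNF440 also without replicate 1, that of ZNF432 without vehicle replicate 2 and that of ZNF786 without either vehicle replicate. ZNF440 was at 2.65 and 3.17 RPKM with vehicle, 2.25 and 2.17 RPKM at CpdA 2 h and 4.01 and 4.13 RPKM at CpdA 4 h. ZNF106, an RNA-binding protein, fell by 0.63 at CpdA 4 h (SE 0.138, adjusted p = 0.012, limma), from 5.98 and 5.67 RPKM to 3.67 and 3.77 RPKM, and this call was lost without vehicle replicate 1 or either CpdA 4 h replicate.

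Across the 240 members the changes against vehicle were mostly small and mostly negative. At 2 h the median log2 fold change of the members was −0.086 with Dex and −0.087 with CpdA, and that of the other genes −0.017 and −0.015. With Dex 74.2% of the members and with CpdA 72.9% lay below 0, against 56.9% and 55.4% of the other genes. At 4 h the members' medians were −0.064 and −0.059, and those of the other genes −0.044 and −0.033. When the other genes were weighted to the expression bins of the members, their medians were −0.021 (Dex 2 h), −0.023 (CpdA 2 h), −0.092 (Dex 4 h) and −0.061 (CpdA 4 h). The members' median was below that of other genes of similar expression at 2 h and not below it at 4 h, with both vehicle samples as reference. The same vehicle values set the floor, so this is a description only.

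**Figure D2:**
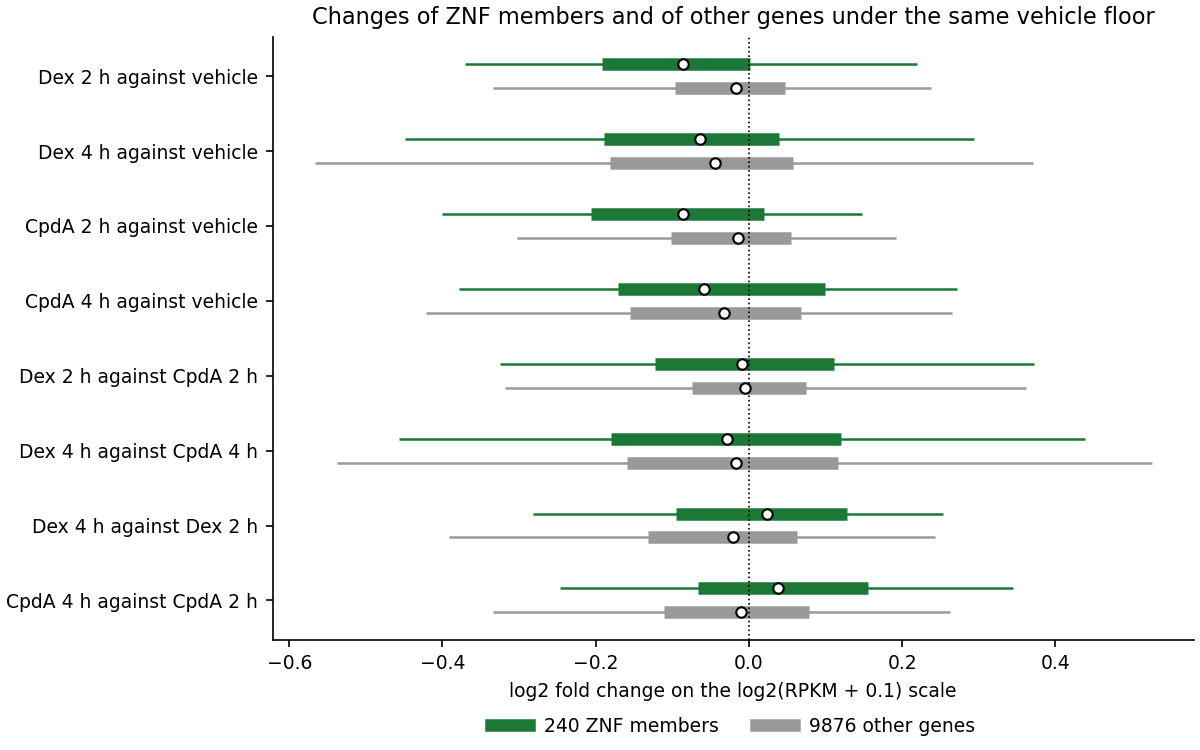
Log2 fold change (horizontal axis) of the 240 ZNF members (green) and 9876 other genes (grey) in 8 comparisons; circles are medians, thick bars quartiles and thin lines the 5th to 95th percentiles. The members' median is at −0.086 and −0.087 at 2 h of Dex and CpdA, where the other genes are at −0.017 and −0.015, and it is above 0 in both comparisons of 4 h with 2 h. The comparisons with vehicle hold the values that set the floor.

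At 2 h the members' median was below that of the other genes in each bin below 16 RPKM. Vehicle values that set the floor enter these comparisons, so medians and shares are given as a description. Among members of 2 to 4 RPKM the median was −0.086 at Dex 2 h and −0.108 at CpdA 2 h, against −0.019 in both for other genes of that bin, and among members of 4 to 8 RPKM it was −0.0999 and −0.097, against −0.026 and −0.031. The 18 members at or above 16 RPKM had −0.011 at Dex 2 h, as had the other genes of that bin (−0.011), and −0.045 at CpdA 2 h (other genes −0.004). The 2 groups of samples did not overlap, with the treated samples lower, in 118 members at Dex 2 h (49.2%, against 31.4% of all genes tested) and in 124 at CpdA 2 h (51.7%, against 33.0%). At 4 h the numbers were 87 with Dex (36.2%, against 36.6%) and 97 with CpdA (40.4%, against 39.5%). Of other genes over the same floor, these shares were 32.5% (Dex) and 34.2% (CpdA) at 2 h, and 36.9% and 41.1% at 4 h.

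Since members and other genes are not replicates of a condition, the difference between their medians was also read by sample. The median of the members minus that of the other genes, each taken as the difference from the vehicle mean, was −0.018 and 0.018 in the vehicle samples, −0.091 and −0.043 at Dex 2 h and −0.081 and −0.054 at CpdA 2 h. It was −0.052 and −0.003 at Dex 4 h and −0.026 and −0.007 at CpdA 4 h. The other genes in these values were not weighted to the members' expression bins. Weighted, their medians against vehicle at 4 h were −0.092 (Dex) and −0.061 (CpdA), and those of the members −0.064 and −0.059. All 4 samples at 2 h lay below both vehicle samples, as did replicate 1 of each ligand at 4 h, while replicate 2 of each lay between the vehicle samples. The pooled SD between replicates was 0.027, a value that holds the time difference between the vehicle samples, and 2 samples against 2 allow no permutation test below 0.05. Against the vehicle sample marked with the same time alone, the members' median minus that of the other genes was −0.046 at Dex 2 h, −0.040 at CpdA 2 h, −0.034 at Dex 4 h and −0.048 at CpdA 4 h, so that the gap between 2 h and 4 h was not seen with that choice. Dex then called 10 members higher and 9 lower at 2 h (8 higher, 23 lower at 4 h), while CpdA called 1 higher and 2 lower at 2 h (7 higher, 24 lower at 4 h), with a lone vehicle sample assumed to vary like the other groups. ZNF symbols under the floor, which vehicle values had kept out, had medians of −0.112 at Dex 2 h, −0.107 at CpdA 2 h, −0.161 at Dex 4 h and −0.053 at CpdA 4 h. Other genes under the floor were not set beside them, so these medians cannot be read as particular to ZNF symbols. When the floor was set on the mean over all samples, the members' median minus that of the other genes was −0.067 at Dex 2 h and −0.066 at CpdA 2 h.

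**Figure D3:**
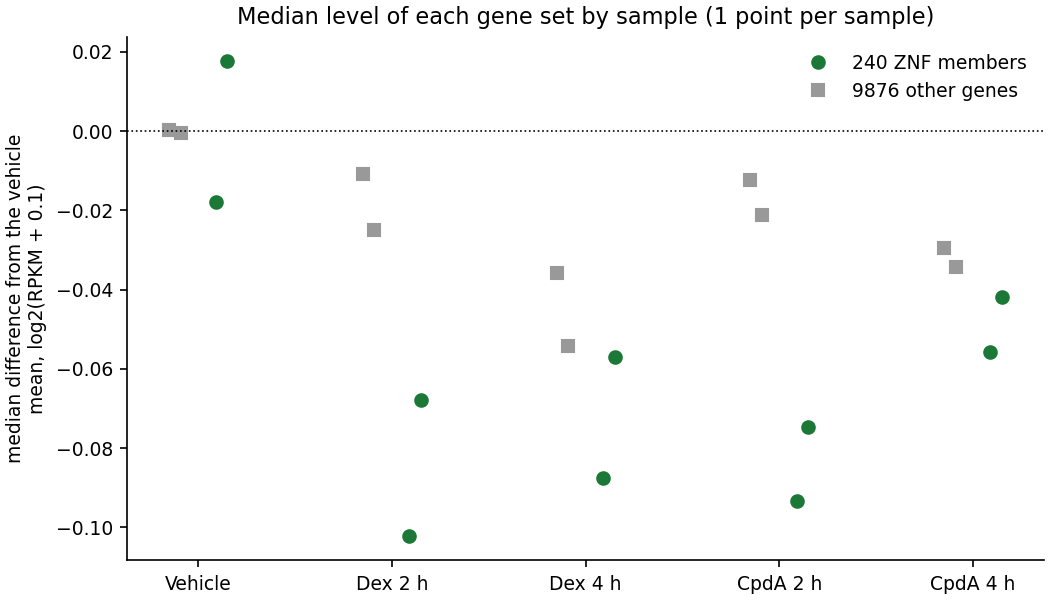
Median difference from the vehicle mean on the log2(RPKM + 0.1) scale (vertical axis) of 240 ZNF members (green circles) and 9876 other genes (grey squares) in each of the 10 samples, by group. The members lie below the other genes in all 4 samples at 2 h, and the vehicle samples, which define the 0 line, lie 0.018 to either side of it for the members. The other genes are not weighted to the members' expression bins.

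The medians were also read by the members' features. At Dex 2 h the median was −0.084 for the 100 members on chromosome 19 and −0.085 for the 139 on other chromosomes, and −0.084 with and −0.086 without KRAB letters. Lower at Dex 2 h were 10 of the 86 members with KRAB letters (11.6%) and 4 of the 149 without them (2.68%), against 5.82% of all genes tested, while 3 and 7 were higher. After the GC and length correction 9 of 86 (10.5%) and 9 of 149 (6.04%) were lower. At CpdA 2 h the medians with and without KRAB letters were −0.116 and −0.073, and 9 of 86 (10.5%) and 11 of 149 (7.38%) were lower. By number of fingers, the median at Dex 2 h was −0.031 for the 47 members with 0 to 4 fingers, −0.078 for the 73 with 5 to 9 and −0.108 for the 115 with 10 or more, and at CpdA 2 h it was −0.047, −0.079 and −0.118. The same order held for median vehicle level (8.55, 4.73 and 3.47 RPKM) and for transcript GC content (52.6%, 48.4% and 43.3%), and the part of these was not tested. Differences between these features were not tested either.

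At Dex 4 h the medians differed by GC content, and at CpdA 4 h those of the members did not. Members below the members' median GC had a median of −0.109 at Dex 4 h and those at or above it −0.020, and the other genes split at the same GC content had −0.087 and −0.019. At CpdA 4 h the members had −0.060 and −0.058, and the other genes −0.007 and −0.050. The members' transcripts had a median GC content of 45.7% and length of 4042 bases, those of the other genes 48.4% and 3501 bases.

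The ligands were then compared with each other, a comparison that holds no vehicle sample and is therefore independent of the floor. At 2 h 21 members were higher and 16 lower with Dex than with CpdA (15.4%, against 13.7% of all genes tested, with 7.53% higher and 6.18% lower). At 4 h 31 were higher and 39 lower (29.2%, against 33.4%, with 15.4% higher and 18.0% lower). Past a fold change of 1.5, 7 were higher and 4 lower at 2 h (2.86% and 1.93% of all genes tested), and 7 higher and 5 lower at 4 h (5.2% and 4.7%). The median difference was −0.009 at 2 h and −0.029 at 4 h, and that of the other genes −0.006 and −0.016. In all 78 members differed at 2 h or 4 h (32.5%, against 38.5% of other genes), 29 of them at both times and in the same direction (12.1%, against 12.9%). Without Dex 2 h replicate 1 there were 12 higher and 5 lower at 2 h, and without CpdA 4 h replicate 2 there were 17 higher and 19 lower at 4 h.

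**Figure D4:**
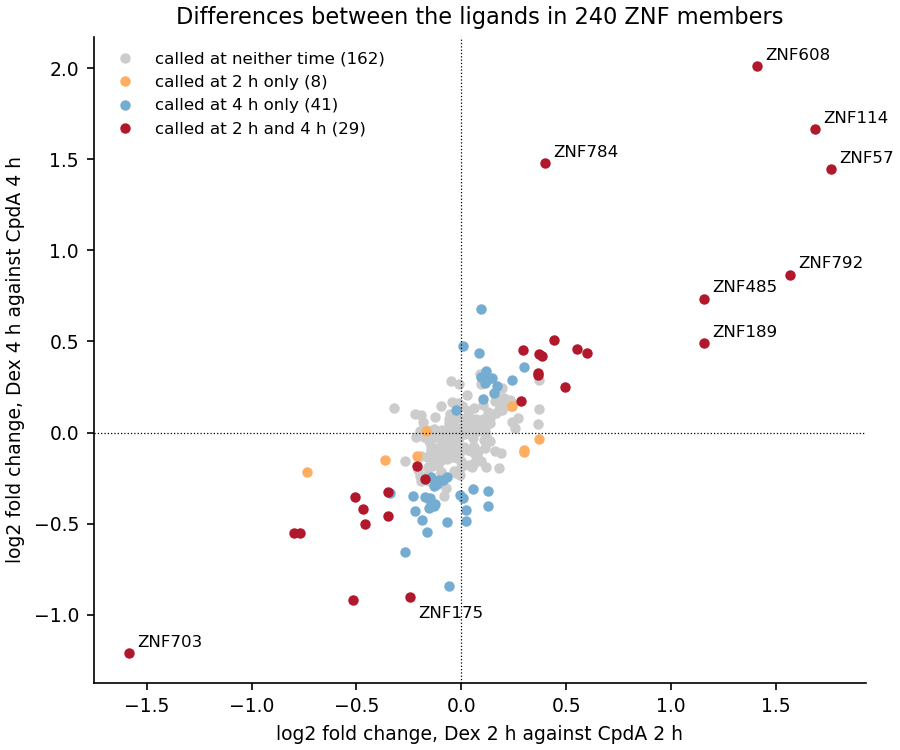
Log2 fold change of Dex against CpdA at 2 h (horizontal axis) and 4 h (vertical axis) for 240 ZNF members, each point a gene, coloured by the time at which limma called the difference. 29 members were called at both times, and ZNF57, ZNF114 and ZNF608 lie farthest to the upper right and ZNF703 farthest to the lower left.

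At 2 h the largest differences among members higher with Dex were those of ZNF57 (log2 difference 1.76, SE 0.064, adjusted p = 1.9e-07, limma), ZNF114 (1.68, SE 0.119, adjusted p = 1.4e-05) and ZNF792 (1.57, SE 0.148, adjusted p = 9.5e-05). ZNF57 and ZNF114 were above vehicle with Dex, whereas ZNF792 was below vehicle with CpdA. ZNF703 (−1.59, SE 0.054, adjusted p = 1.2e-07, limma), ZNF222 (−0.80, adjusted p = 0.00059) and ZNF93 (−0.77, adjusted p = 0.0093) were lower with Dex. ZNF93, a KRAB protein known to repress LINE-1 elements, was at 2.26 and 2.33 RPKM at Dex 2 h and at 3.90 and 4.07 RPKM at CpdA 2 h, and its call was lost when any of these 4 samples was left out. Its vehicle samples were at 3.27 and 2.21 RPKM.

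At 4 h ZNF608 (log2 difference 2.01, SE 0.088, adjusted p = 3.2e-07, limma), ZNF114 (1.67, adjusted p = 7.5e-06) and ZNF784 (1.48, adjusted p = 8.7e-06) were highest with Dex relative to CpdA. ZNF703 (−1.21, adjusted p = 3.6e-07, limma), ZNF267 (−0.92, adjusted p = 2.1e-05) and ZNF175 (−0.90, adjusted p = 6.4e-06) were lowest. ZNF367, with a difference of 0.01 at 4 h (SE 0.048, adjusted p = 0.93, limma), gave no sign of one.

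Between 2 h and 4 h of the same ligand, which likewise holds no vehicle sample, 8 members were higher and 12 lower at Dex 4 h (8.33%, against 13.6% of all genes tested, with 4.55% higher and 9.02% lower). With CpdA 14 were higher and 9 lower at 4 h (9.58%, against 12.4%, with 5.21% higher and 7.20% lower). The median change was 0.024 with Dex and 0.038 with CpdA, against −0.021 and −0.011 for other genes and −0.065 and −0.030 for these weighted to the members' bins. Quantile normalization gave 21 higher and 9 lower with Dex, median scaling 20 and 10, and with CpdA these gave 25 and 9, and 20 and 8. Without Dex 2 h replicate 1 the Dex counts were 1 and 5, and without CpdA 4 h replicate 2 the CpdA counts were 1 and 3. The groups did not overlap, with 4 h higher, in 73 members with Dex (30.4%, against 20.3% of all genes tested) and in 108 with CpdA (45.0%, against 30.6%).

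ZNF114 was higher at 4 h with Dex (log2 difference 0.68, SE 0.119, adjusted p = 0.0069, limma) and with CpdA (0.70, adjusted p = 0.0081). The call with Dex was lost without Dex 2 h replicate 2 and that with CpdA without any 1 of the 4 CpdA samples. ZNF675 was higher at 4 h of Dex (0.44, adjusted p = 0.013, limma), as was the pseudogene ZNF767P (0.69, adjusted p = 0.038), which was at 1.40 and 2.02 RPKM at 2 h and at 2.87 and 2.68 RPKM at 4 h. The call of ZNF675 was lost without either Dex 2 h replicate, and that of ZNF767P without Dex 2 h replicate 1, Dex 4 h replicate 1 or any 1 CpdA sample. ZNF175 (−0.74, adjusted p = 0.00021, limma), ZNF702P (−0.59, adjusted p = 0.001) and ZNF697 (−0.81, adjusted p = 0.0087, lost without Dex 2 h replicate 2) were lower at 4 h of Dex.

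With CpdA, ZNF440 had the largest increase from 2 h to 4 h (0.85, SE 0.099, adjusted p = 0.0017, limma). ZNF823 was higher at 4 h (0.56, adjusted p = 0.01, limma), at 2.24 and 1.95 RPKM and then 3.11 and 3.15 RPKM, and ZNF367 (−0.74, adjusted p = 0.00017), ZNF784 (−0.69, adjusted p = 0.0059) and ZNF93 (−0.68, adjusted p = 0.022) were lower. The calls of ZNF823 and ZNF784 were lost without CpdA 2 h replicate 2 or CpdA 4 h replicate 1, that of ZNF823 also without CpdA 4 h replicate 2, and that of ZNF93 without any 1 of the 4 CpdA samples.

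**Figure D5:**
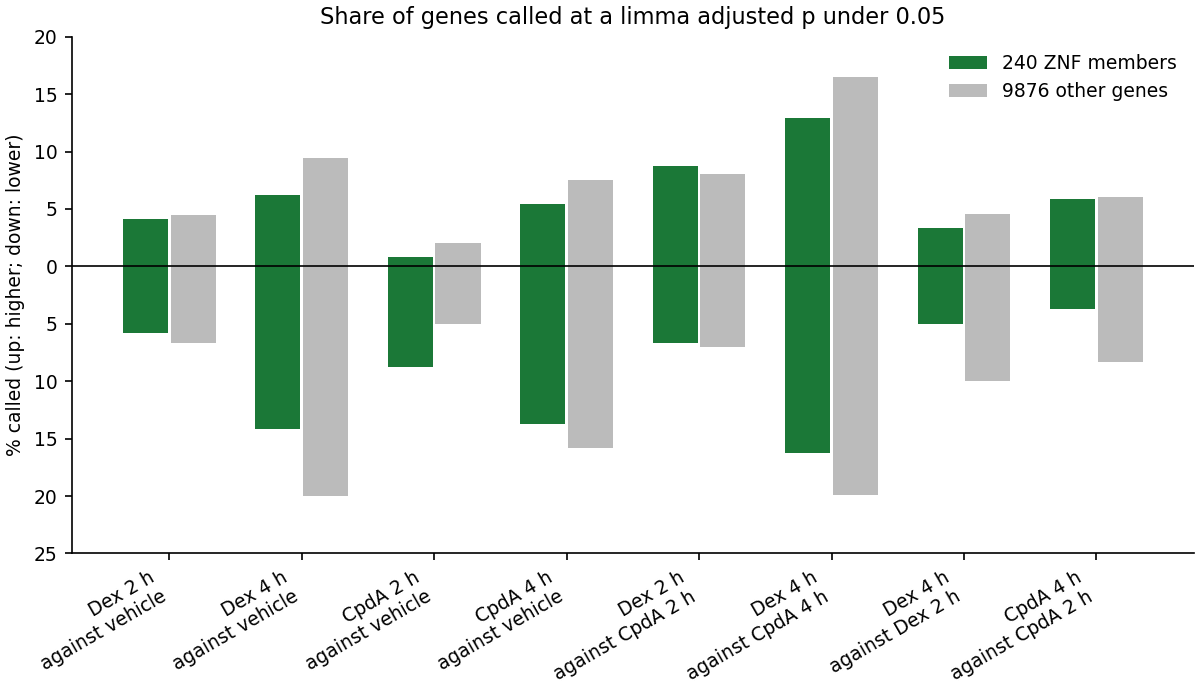
Share of genes called (vertical axis, %, at a limma adjusted p under 0.05) in 8 comparisons, higher above and lower below the 0 line, for 240 ZNF members (green) and 9876 other genes (grey). The members' share lower than vehicle is 8.75% at CpdA 2 h, beside the other genes' 5.05%, and 14.2% at Dex 4 h, beside 19.98%. Both comparisons hold the vehicle values that set the floor, so nothing is read from these shares. The share at CpdA 2 h also rested on single samples.

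In all, 92 members were called in at least 1 of the 4 comparisons with vehicle (38.3%, against 43.2% of other genes) and 148 in none. Past a fold change of 2 besides, 9 members were called in any of them (3.75%, against 3.89%): ZNF57, ZNF114, ZNF189, ZNF608, ZNF175, ZNF697, ZNF703, ZNF784 and ZNF792. In simulated data with the spread of these samples for Dex 2 h over 12713 genes, 39 of 100 genes given a log2 change of 0.3, and 89 of 100 given 0.6, were called. The members' median change was smaller than either. The simulation changed a far smaller share of genes than the 10.3% called at Dex 2 h. It also did not draw them to the members' levels, so its rates need not hold for the members.

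By role, the list of 20 ZNF symbols known as transcription or chromatin regulators had 19 genes over the filter. At Dex 2 h 1 was higher and 2 were lower (4.49% and 5.82% of all genes tested), with a median of −0.045. ZNF395, a hypoxia-responsive factor, was higher, at 33.1 and 33.2 RPKM against 28.5 and 21.7 RPKM with vehicle (log2 fold change 0.41, adjusted p = 0.035, limma). Its vehicle samples lay apart from each other, and the lower, at 21.7 RPKM, was the one marked 4 h. ZNF703 and ZNF335, a component of a histone methyltransferase complex, were lower, ZNF335 with 8.95 and 9.47 RPKM against 10.4 and 11.04 RPKM (log2 fold change −0.22, adjusted p = 0.027, limma).

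At Dex 4 h 0 of these 19 were higher and 5 lower, with 9.26% and 18.2% of all genes tested, and the median was −0.048, beside −0.052 for all genes tested. They were ZNF703, ZNF827, a telomere and chromatin factor (−0.70, adjusted p = 0.00077, limma), ZNF362 (−0.36, adjusted p = 0.0012), ZNF24 (−0.24, adjusted p = 0.049) and ZNF462, which lies under the floor (0.523 and 0.805 RPKM against 1.14 and 1.29). With CpdA 0 were called at 2 h, and at 4 h 3 were lower (13.8% of all genes tested): ZNF703, ZNF362 (−0.44, adjusted p = 0.00079, limma) and ZNF143, an activator bound at many promoters (−0.27, adjusted p = 0.022). ZNF687 was higher with Dex than with CpdA at 4 h by 0.18 on the log2 scale, just past the threshold, while ZNF335 and ZNF827 were lower (−0.26 and −0.48, adjusted p = 0.0039 and 0.0053, limma).

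The list of ZNF symbols related to RNA, ribosomes, ubiquitin and mitosis had 10 genes over the filter. ZNF622, a factor of ribosome assembly, differed most steadily between ligands. It was at 26.6 and 27.9 RPKM with vehicle, 31.7 and 30.9 RPKM at Dex 2 h and 36.7 and 34.2 RPKM at Dex 4 h. With CpdA it was at 23.2 and 22.8 RPKM at 2 h and at 24.8 and 24.98 RPKM at 4 h. All Dex samples lay above and all CpdA samples below vehicle. The log2 fold change was 0.20 and 0.38 with Dex (SE 0.046, adjusted p = 0.024 and 0.00029, limma) and −0.24 at CpdA 2 h (adjusted p = 0.017), and −0.13 at CpdA 4 h did not pass (adjusted p = 0.08). ZNF346, which binds double-stranded RNA, was lower at Dex 4 h and CpdA 2 h (−0.30 and −0.28, adjusted p = 0.01 and 0.046, limma), and ZNF106 was lower at CpdA 4 h.

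Of the 21 partners of KRAB proteins in silencing, 0 were called at Dex 2 h (median −0.040), 5 were lower at Dex 4 h (18.2% of all genes tested; median −0.093, all genes −0.052), 2 were lower at CpdA 2 h (4.29%) and 6 were lower at CpdA 4 h (13.8%; median −0.153, all genes −0.037). In these comparisons 0 were higher, and with 21 genes and no test nothing is called particular to the list. TRIM28, the corepressor that KRAB domains bind, was at 135 and 145 RPKM with vehicle, 139 and 131 RPKM at Dex 4 h and 106 and 114 RPKM at CpdA 4 h. CpdA 4 h was lowest, and TRIM28 was lower there than with vehicle (log2 fold change −0.35, SE 0.05) and than with Dex 4 h, where the log2 difference was 0.29. UHRF1, which maintains DNA methylation, was at 10.6 and 10.5 RPKM with vehicle, 5.99 and 6.37 RPKM at Dex 4 h and 6.55 and 6.62 RPKM at CpdA 4 h. UHRF1 was thus lower at 4 h of either ligand (log2 fold change −0.76 and −0.67, SE 0.049). The histone methyltransferases SUV39H1 and SUV39H2 were lower at CpdA 2 h (−0.23 and −0.23) and 4 h (−0.38 and −0.25), and SUV39H2 also at Dex 4 h (−0.40). CBX5 (−0.49), a heterochromatin protein, and ATF7IP (−0.46) were lower at CpdA 4 h, and CBX1 (−0.17), MPHOSPH8 (−0.36) and SMARCAD1 (−0.26) at Dex 4 h. MORC2, which acts with the silencing complex of MPHOSPH8, was lower with Dex than with CpdA at 4 h (log2 difference −0.25, adjusted p = 0.023, limma).

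Zinc finger genes under other symbols, over the same vehicle floor, are given by prefix, and differences between prefixes were not tested. Among all genes tested, Dex called 4.49% higher and 5.82% lower at 2 h (9.26% and 18.2% at 4 h), whereas CpdA called 1.89% higher and 4.29% lower at 2 h (6.76% and 13.8% at 4 h). Of 10 KLF genes 6 were higher and 0 lower at Dex 2 h (median 0.37). At Dex 4 h 5 were higher and 1 lower, with CpdA 1 each way at either time. Of 27 ZBTB genes Dex called 2 higher and 4 lower at 2 h (4 higher, 6 lower at 4 h). CpdA called 1 higher and 5 lower at 2 h (median −0.16) and 3 higher and 7 lower at 4 h. Of 12 ZFP genes 3 were higher and 2 lower at each Dex time, and with CpdA 2 higher and 1 lower at 2 h, then 1 each way at 4 h. Of 9 ZSCAN genes 0 were higher in any of these, and 2, 4, 0 and 1 were lower in the same order. Of 4 PRDM genes 1 was lower at each Dex time and at CpdA 4 h, and of 3 ZKSCAN genes 0 were called. Among the 8 genes listed as a check of the ligands, 4 were higher at Dex 4 h and 7 at CpdA 4 h. TSC22D3 reached 315 RPKM with Dex and HSPA6 54.4 RPKM with CpdA. The list holds genes picked for their response to CpdA in earlier results of these data, so its counts do not rank the ligands. FKBP5 and TSC22D3 had log2 fold changes of 4.98 and 5.10 at Dex 4 h and of 0.28 and 0.27 at CpdA 4 h. NR3C1, the gene of the receptor, was lower at Dex 2 h and 4 h (log2 fold change −0.56 and −0.97).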

How the data were processed

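RNA of 10 MDA-MB-231 samples was read as 50-base single ends from libraries of a TruSeq RNA kit, which does not mark strand. Per the study's methods the authors aligned reads with TopHat 2.0.13 (which runs Bowtie) and made the deposited RPKM values per gene in Partek 6.6, with hg19 as the build in the submitters' processing notes; the treatment of reads that map to several genes and the way transcripts were joined into symbols are not given in the sources used here. The series' other samples were not used here. Total reads are not in the RPKM files, so only relative depth was derived, from the smallest step of low values, and no counting interval can be given.

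The 12713 genes that reached 0.5 RPKM in 2 or more samples were tested on log2(RPKM + 0.1), where fold changes of low genes are understated, with limma 3.58.1 in R 4.3.3: 1 fit over the 5 groups with an abundance trend, no replicate block, and Benjamini-Hochberg adjustment at 0.05 over all 12713 genes. SE is limma's moderated standard error. Groups follow the sample labels, although the file headers give the vehicle samples different times (2 h and 4 h). The study calls its duplicates biological, but nothing in the labels says that replicates are separate cultures. If they are not, p-values measure only technical spread. The members and gene lists were chosen with earlier results of these data known, and so support nothing on their own. Named genes were the 5 largest changes in each direction against vehicle and the 3 largest in each comparison without vehicle, among members past the threshold whose groups did not overlap; the 5 highest in vehicle; the 3 genes on either side of the floor; members called alike in all 4 comparisons with vehicle; and called genes of the lists. ZNF69, ZNF420, ZNF296 and genes in counts of 5 or fewer were named after their values were seen.

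Features came from GENCODE 44 models on GRCh37 (239 members; GC and length for 91.7% of tested genes) and promoters from RefSeq on GRCh38.p14, read with Python 3.11.15, pandas 2.3.3, numpy 2.4.6 and Biopython 1.88; figures used matplotlib 3.10.9. Alternatives were other pseudocounts (0.01 and 1), no or a stricter filter (RPKM of at least 1), quantile and median scaling, a GC and length correction, a replicate block, no abundance trend, only the 4 samples compared, another floor, and leaving out each sample. The fit was tested on simulated data: 7 unchanged genes were called beside the changed ones, and 0 when nothing was changed.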

Additional observations from a re-analysis of the deposited data

Results flagged for a closer look

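Between 2 h and 4 h of Dex, the test of the difference itself (limma, adjusted p under 0.05) called 8 members higher and 12 lower at 4 h. These were 8.33% of the members, against 13.6% of all genes tested. With CpdA it called 14 higher and 9 lower at 4 h (9.58%, against 12.4%). Between the ligands it called 21 members higher and 16 lower with Dex at 2 h (15.4%, against 13.7%). At 4 h it called 31 higher and 39 lower (29.2%, against 33.4%). The members' shares were thus near or below those of all genes tested. No group had enough samples for a check of single outlying samples.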

How the results depend on the processing

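The 61 changes named above for their size kept their direction under every alternative. Of these, 39 were called under all of them and 22 were lost under at least 1. Calls named only through a gene list, such as that of ZNF395, were not among the 61. All 61 were chosen as called with no overlap between their groups. Leaving out a sample or changing the pseudocount, filter or abundance trend could therefore not reverse them. Counts of calls moved with scaling, with the GC and length correction, with single samples and with a fit on only the 4 samples compared. In what follows, counts are members, and where a count moved the cause was not tested. Medians are members minus other genes on the log2 scale, the other genes not weighted to the members' expression bins. With 2 samples a group the design limits single-gene calls, and depth in reads is unknown.

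Under quantile normalization, Dex 4 h gave 23 higher and 20 lower with a median of 0.031, CpdA 2 h 13 lower, CpdA 4 h 27 higher and 20 lower with 0.019, Dex 4 h against 2 h 21 higher with 0.078, and CpdA 4 h against 2 h 25 higher. Median scaling gave 23 higher and 22 lower at Dex 4 h, 25 higher and 20 lower at CpdA 4 h, and 20 higher at Dex 4 h against 2 h. The GC and length correction gave 29 higher at Dex 4 h, 4 higher at CpdA 2 h, 26 higher at CpdA 4 h with a median of 0.00083, 22 higher at Dex 4 h against 2 h, and 28 higher at CpdA 4 h against 2 h. With no filter there were 9 lower at Dex 2 h, 0 higher and 7 lower at CpdA 2 h, 8 higher at CpdA 4 h, 2 higher at Dex 4 h against 2 h and 8 higher at CpdA 4 h against 2 h. With no abundance trend there was 1 higher at CpdA 2 h. A fit on only the 4 samples gave 7 lower at Dex 2 h, 7 higher and 12 lower at Dex 4 h, 0 higher and 6 lower at CpdA 2 h, 2 higher and 5 lower at Dex 4 h against 2 h, and 43 higher and 20 lower at CpdA 4 h against 2 h.

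Same-numbered samples were not shown to be pairs, and the numbers of the vehicle samples stand for different times in the file headers: over 10 pairs of groups their deviations correlated with a mean r of 0.054 (−0.057 to 0.198), over 0.1 in 3. The replicate block moved 1 count by over 1.5 times, CpdA 4 h against 2 h, with 22 higher. The replicate block with the GC and length correction gave 23 lower at Dex 2 h, 28 higher at Dex 4 h, 4 higher at CpdA 2 h, 29 higher at CpdA 4 h with a median of 0.00083, 31 higher at Dex 4 h against 2 h, and 31 higher at CpdA 4 h against 2 h.

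With each sample left out in turn, Dex 2 h gave 5 to 11 higher and 4 to 29 lower (median −0.091 to −0.043), Dex 4 h 8 to 20 and 23 to 57 (−0.052 to −0.0029), CpdA 2 h 0 to 3 and 2 to 39 (−0.099 to −0.040), and CpdA 4 h 1 to 19 and 9 to 43 (−0.048 to 0.031). Dex against CpdA gave 12 to 29 and 5 to 21 at 2 h (−0.038 to 0.027) and 17 to 36 and 19 to 55 at 4 h (−0.060 to 0.027). Dex 4 h against 2 h gave 1 to 20 and 5 to 30 (0.011 to 0.076), and CpdA 4 h against 2 h 1 to 28 and 2 to 13 (0.040 to 0.072).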
